A study of Homo sapiens with 6 samples.

Results

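The genes described here are ANKRD1, CCN1, CCN2, AMOTL1, AMOTL2, AJUBA, AXL, F3, NUAK2 and CRIM1, all reported targets of the transcription coactivator YAP and its TEAD partners. They were measured in a HEK293 line, an established line from human embryonic kidney, in which BAHD1, a repressor that builds heterochromatin, had been integrated as a single copy behind a CMV promoter. The comparison was with an isogenic control line, which carried a β-galactosidase insert out of frame per the sample labels and an empty vector per the paper. Both lines were stable pools of transfected Flp-In T-REx cells, with the insert at 1 integration site, and both were kept in hygromycin. Total RNA of 3 cultures per line was hybridised to Affymetrix HuGene ST arrays, so that the spread between arrays is that between flasks of 1 pool. It may hold passage as well, since by the methods HEK-BAHD1 replicate 2 was taken at a later passage than replicate 1 and the control. A probe set was taken as a member where its annotation named that gene and no other. All 10 genes had 1 such probe set, among 19310 probe sets naming 1 gene and 28869 in all. ANKRD1, CCN2 and CCN1 were chosen by their differences between these same arrays, and the others were put beside them with results of these arrays known. No p is therefore given for any of the 10, and their values and calls are a description that supports nothing further.

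BAHD1, the gene that separates the lines, was read first. Its log2 signal was 10.06, 9.81 and 9.93 on the arrays labelled HEK-CT and 6.75, 7.00 and 6.76 on those labelled HEK-BAHD1, the opposite of what the labels say. The labels were kept as deposited, and every direction below is that of the labels. If the labels were exchanged, every sign below would turn. The direction of BAHD1, and below that of AMOT, opposes the one the study gives for its lines. The median log2 signal of an array lay between 5.46 and 5.56. Of 7 neuronal and kidney genes known in HEK293 cells, NEFL and INA had log2 signals from 9.69 to 10.21 and from 9.71 to 9.89 over the 6 arrays, and GATA3 from 7.71 to 7.92. PAX2, PAX8 and LHX1 lay between 5.24 and 5.98, near the array medians, and NEFM, from 4.21 to 5.47, had a mean among the dimmest 30% of probe sets. Of 10 fibroblast markers, 7 lay in the dimmest 30% of probe sets, a mean log2 signal under 4.93, DCN, LUM, POSTN and FAP among them. The other 3 did not. COL1A1, from 6.53 to 6.71, lay above the array medians, COL3A1, from 5.56 to 6.11, at or above them, and COL1A2, from 5.07 to 5.18, below them.

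YAP and its paralog TAZ (gene WWTR1) shuttle between cytoplasm and nucleus. The Hippo kinase cascade, in which MST kinases activate LATS kinases, phosphorylates them and holds them in the cytoplasm. When cells spread, are stretched or have room to grow, YAP enters the nucleus and binds TEAD factors, which recognise short DNA sites around the sequence GGAATG, often beside AP-1 sites. CCN1, CCN2 and ANKRD1 are the targets most often read as a measure of that activity. Several targets are also regulators of the pathway, such as the angiomotins and AJUBA.

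The sequences before the transcription starts are shown first. The genes are reported TEAD targets, so a TEAD motif before them is not independent of that choice, and its share is a description. RefSeq promoters (GRCh38.p14) were at hand for 8 of the 10 genes, with 11 start sites. CCN1 and CRIM1 had no entry and were not searched. The 250 bases before each start were searched on both strands. Of these genes 6 had GGAATG before at least 1 start. Of all 35116 annotated start sites 11.9% had it, as did 14.3% of all genes. Given below are the genes with the largest differences on the arrays that have an entry, ANKRD1, CCN2 and AMOTL2, and NUAK2, which has 2 matches and differed little. Each runs 5′ to 3′ on the strand of the gene and ends at the base before the start, with GGAATG, or CATTCC where it lies on the other strand, in capitals.
ANKRD1, chr10:90921088-90921337, minus strand: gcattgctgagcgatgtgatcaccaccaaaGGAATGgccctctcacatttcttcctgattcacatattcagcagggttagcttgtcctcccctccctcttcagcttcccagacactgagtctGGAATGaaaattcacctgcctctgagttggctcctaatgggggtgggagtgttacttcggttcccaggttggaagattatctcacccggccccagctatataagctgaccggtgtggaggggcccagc
CCN2, chr6:131951373-131951622, minus strand: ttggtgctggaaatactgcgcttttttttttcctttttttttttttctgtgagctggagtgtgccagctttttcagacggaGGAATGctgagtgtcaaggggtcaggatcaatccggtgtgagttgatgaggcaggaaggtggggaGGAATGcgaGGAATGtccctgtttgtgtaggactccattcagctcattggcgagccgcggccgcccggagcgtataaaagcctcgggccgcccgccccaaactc
AMOTL2, chr3:134374448-134374697, minus strand: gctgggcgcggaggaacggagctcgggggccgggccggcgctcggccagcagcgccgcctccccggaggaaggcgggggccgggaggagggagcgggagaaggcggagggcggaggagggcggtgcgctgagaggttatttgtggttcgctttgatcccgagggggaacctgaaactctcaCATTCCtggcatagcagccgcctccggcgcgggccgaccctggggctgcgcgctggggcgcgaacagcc
NUAK2, chr1:205321746-205321995, minus strand: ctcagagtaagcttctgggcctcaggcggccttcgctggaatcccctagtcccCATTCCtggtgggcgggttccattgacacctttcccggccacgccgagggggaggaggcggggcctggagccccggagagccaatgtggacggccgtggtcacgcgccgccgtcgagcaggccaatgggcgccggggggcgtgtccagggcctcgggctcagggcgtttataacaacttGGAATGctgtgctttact

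CCN2 had 3 matches, the first bases of which lay 169, 104 and 95 bases before its start, and 0.0826% of all start sites had 3 or more. ANKRD1 had 2, beginning 220 and 128 bases before its start, and NUAK2 had 2 as well, against 0.94% of all start sites with 2 or more. The longer form GGAATGT was found before CCN2 and before the second start of AMOTL2, shown above, and before 2.96% of all start sites. Its 7 letters contain the 6 of GGAATG, so these matches overlap. The second starts of AJUBA and AXL had 1 match each, while the other starts of AMOTL2, AJUBA and AXL and the single starts of AMOTL1 and F3 had none. TGANTCA, the AP-1 motif, was found once before ANKRD1, beginning 195 bases from the start, and at 2 places before F3, with 6.57% of all start sites holding it. No start of these genes had the CArG box of SRF, which 1.16% of all start sites had. A match of letters is not a bound site, and only these 250 bases were read.

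**Figure D1:**
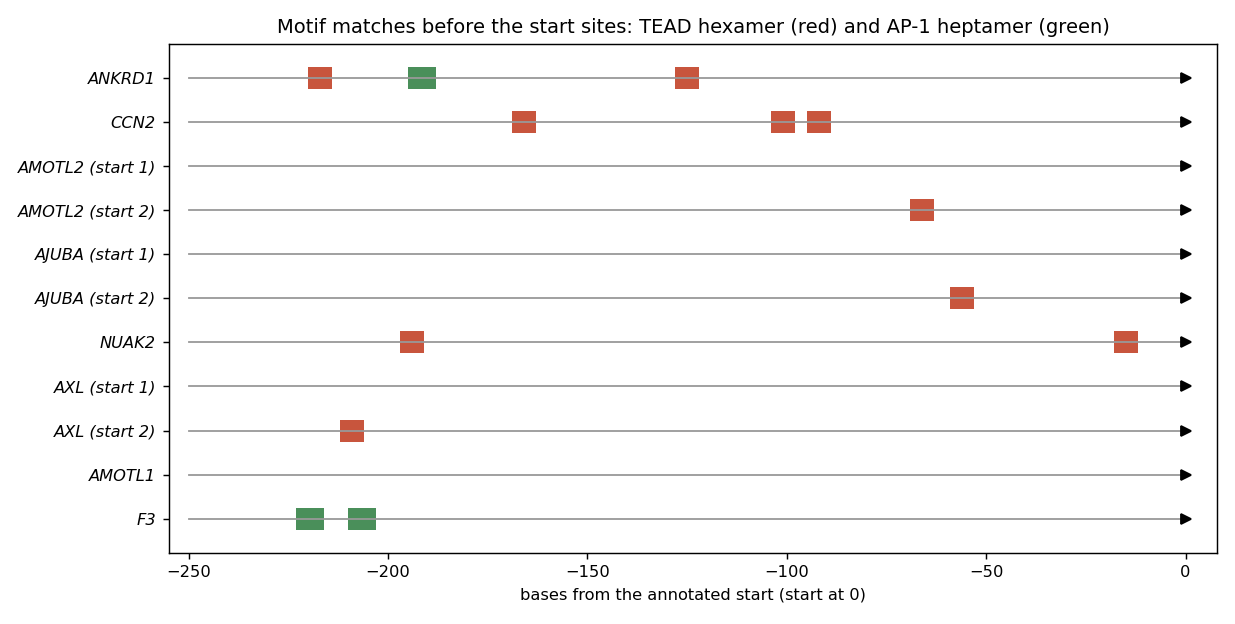
Position of each match (horizontal axis, bases from the annotated start, the start at 0) before the 11 start sites of 8 genes (rows). Red boxes are the TEAD motif of 6 bases on either strand, and green boxes the AP-1 motif. CCN2 has 3 red boxes, ANKRD1 and NUAK2 have 2, and F3 has green boxes only.

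ANKRD1, which encodes a muscle and nuclear ankyrin repeat protein, had the largest difference of the 10. Its log2 signal was 10.67, 10.94 and 10.92 on the arrays labelled HEK-CT. On those labelled HEK-BAHD1 it was 8.35, 8.45 and 8.34. The groups lay far apart, the spread within each being small beside the step between them. The log2 difference of the means, labelled HEK-BAHD1 minus labelled HEK-CT, was -2.46 (standard error 0.083, n = 3 arrays per label), a 5.51-fold lower signal. Among the 21062 probe sets naming at least 1 gene, only that of BAHD1 had a lower value.

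CCN2 and CCN1 encode secreted matricellular proteins, formerly CTGF and CYR61, that bind integrins and heparan sulfate. The log2 signal of CCN2 was 8.33, 8.51 and 8.62 on the arrays labelled HEK-CT and 6.75, 7.04 and 6.83 on those labelled HEK-BAHD1. That of CCN1 was 7.93, 8.24 and 8.03 against 6.68, 6.82 and 6.76. For both genes all 3 arrays labelled HEK-CT lay above all 3 labelled HEK-BAHD1. The log2 differences were -1.61 (standard error 0.10) for CCN2 and -1.31 (standard error 0.087) for CCN1, or 3.06-fold and 2.48-fold lower. They ranked 5 and 10 from the lowest among the 21062 probe sets.

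The angiomotins bind YAP and hold it at junctions and actin fibres. AMOTL2 had log2 signals of 6.34, 6.48 and 6.61 on the arrays labelled HEK-CT and 5.56, 5.68 and 5.75 on those labelled HEK-BAHD1. Its log2 difference was -0.81 (standard error 0.084), again with no overlap. AMOTL1 had 8.25, 8.23 and 8.20 against 8.19, 8.32 and 8.17. The array labelled HEK-BAHD1 replicate 2 was the highest of the 6 and the remaining ones labelled HEK-BAHD1 the lowest, so the groups overlapped, with a difference of 0.00 (standard error 0.06). Centring each array on its median gave -0.037 and a further quantile normalization 0.025, so the sign turned with the scaling.

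AJUBA, a LIM domain protein of cell junctions, binds LATS kinases and dampens their action on YAP. Its log2 signal was 7.09, 7.01 and 7.19 on the arrays labelled HEK-CT and 6.70, 6.49 and 6.78 on those labelled HEK-BAHD1. These groups did not overlap, and the difference was -0.44 (standard error 0.088). CRIM1, a transmembrane protein that binds bone morphogenetic proteins, had 8.55, 8.69 and 8.58 against 8.30, 8.49 and 8.40. Its arrays did not overlap either, but the edges of the groups nearly met, and the difference was -0.21 (standard error 0.07).

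The remaining members encode proteins that act at the cell surface or in stress signalling. NUAK2, a kinase related to AMPK, had log2 signals of 5.25, 5.39 and 5.44 on the arrays labelled HEK-CT and 5.23, 5.22 and 5.27 on those labelled HEK-BAHD1. The array labelled HEK-CT replicate 1 fell among those labelled HEK-BAHD1, and the difference was -0.12 (standard error 0.064). AXL, a receptor tyrosine kinase, had 4.82, 4.61 and 4.96 against 4.64, 4.74 and 4.76, with groups that overlapped and a difference of -0.083 (standard error 0.092). Its mean lay under the limit of the dimmest 30% of probe sets, the only one of the 10 to do so. F3, which encodes tissue factor, the initiator of coagulation, was the only member with more signal under the label HEK-BAHD1, at 5.87, 5.67 and 5.66 against 5.33, 5.63 and 5.56. The groups of F3 nearly met without overlapping, and its difference was 0.23 (standard error 0.095).

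**Figure D2:**
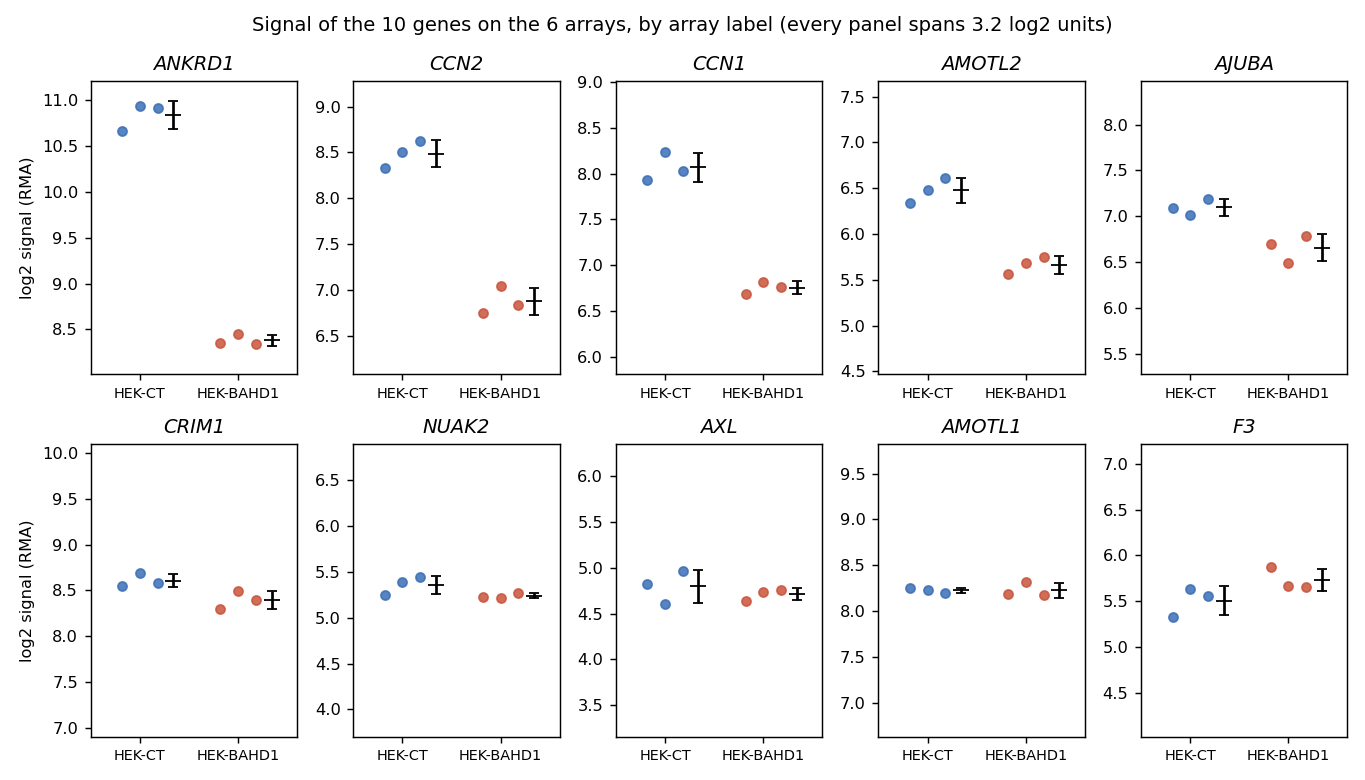
Log2 signal (vertical axis, each panel spanning 3.2 log2 units) of the 10 genes on the 3 arrays of each label (horizontal axis). Points are replicates 1 to 3 from left to right, and the black mark and bar are mean ± SD of 3 arrays. ANKRD1, CCN2, CCN1, AMOTL2 and AJUBA are lower on the arrays labelled HEK-BAHD1, whereas NUAK2, AXL and AMOTL1 overlap.

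In order of their differences the genes ran ANKRD1, CCN2, CCN1, AMOTL2, AJUBA, CRIM1, NUAK2, AXL, AMOTL1 and F3. Neighbours from ANKRD1 to CRIM1 were further apart than the sum of their standard errors, the closest of them being CCN2 and CCN1 (0.30 apart, sum 0.187) and AJUBA and CRIM1 (0.23 apart, sum 0.157). CRIM1, NUAK2, AXL and AMOTL1 could not be ordered in that way, with neighbours 0.037 to 0.09 apart. A probe set was called where limma gave an adjusted p under 0.05 and the group medians differed by more than 0.2. By that rule 5 members were called lower (ANKRD1, CCN2, CCN1, AMOTL2 and AJUBA), 0 higher and 5 neither, beside 6.39% of all 21062 probe sets called lower and 6.79% called higher. At an unadjusted p under 0.05, 6 members were lower and 1 was higher, but the share of all probe sets was not counted there. The LPE test named in the methods called 5 members lower and 0 higher, and 7.41% and 6.29% of all probe sets. Groups did not overlap for 6 members that were lower and 1 that was higher, beside 16.9% and 16.7% of all probe sets. The median difference of the 10 was -0.33, beside 0.0033 for all probe sets. AJUBA was not called without HEK-CT replicate 1 or HEK-CT replicate 3, and its difference lay between -0.50 and -0.36 over the 6 removals of an array. Removing HEK-CT replicate 2 put AXL at -0.18 and F3 at 0.29, while AXL was at -0.0017 on removal of replicate 3 of that label and F3 at 0.14 on removal of replicate 1. Centring the arrays added CRIM1, for 6 members called lower. After that centring 37.0% of all calls were higher (1125 higher, 1912 lower) against 51.5% before it (1430 and 1345). Nothing is read from these counts and calls of the members, because the genes were chosen on this contrast.

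**Figure D3:**
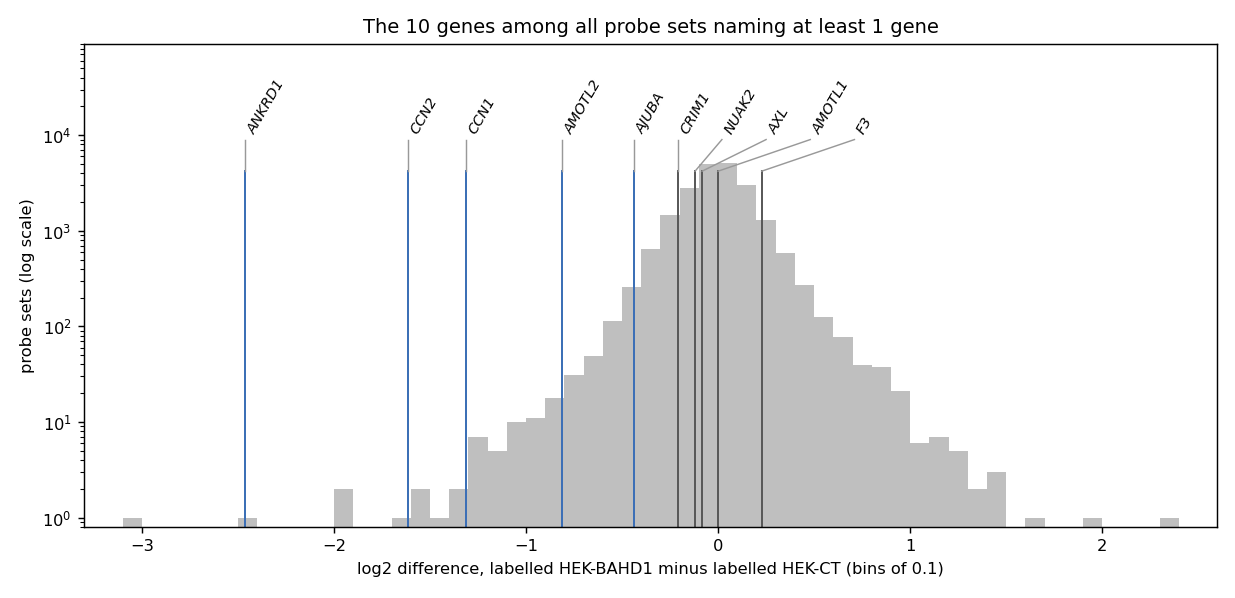
Number of the 21062 probe sets naming at least 1 gene (vertical axis, log scale) by log2 difference, labelled HEK-BAHD1 minus labelled HEK-CT (horizontal axis, bins of 0.1). Lines mark the 10 genes, blue where called lower. ANKRD1 at -2.46, CCN2 at -1.61 and CCN1 at -1.31 lie in the lower tail, and the members from CRIM1 to F3 lie between -0.21 and 0.23.

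Among markers of other cells, the summed log2 signal of the 10 fibroblast markers moved with the members. It lay between 43.92 and 44.23 on the arrays labelled HEK-CT and between 43.39 and 43.77 on those labelled HEK-BAHD1, without overlap. Only COL3A1 was called, at -0.31 (adjusted p = 0.0474 from limma). That call was lost on removal of any 1 of the 6 arrays, with the LPE test and with all probe sets tested. At an unadjusted p under 0.05 from limma, 2 of the 10 were lower, COL3A1 and LUM (-0.15), and 0 higher. The groups did not overlap for either gene. Without COL3A1, left out after its values were seen, the sums of the other 9 overlapped, at 37.81 to 38.21 and 37.62 to 38.21, and DCN, LUM, POSTN and FAP had log2 signals from 2.83 to 3.34. Of 7 measured endothelial and blood markers none was called by limma, none passed an unadjusted p under 0.05 and none was called by the LPE test. Their sums were 28.48 to 29.36 under the label HEK-CT and 29.00 to 29.65 under the label HEK-BAHD1. Of the 7 neuronal and kidney genes, NEFM and NEFL were higher, at 0.77 and 0.40 (adjusted p = 0.013 and 0.00766), and the other 5 were not called. The part of these markers in the members' differences was not tested. In such bulk RNA, fewer cells of a kind and less RNA per cell cannot be told apart.

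The gene lists set beside the members were drawn up with earlier results of these data known, so their p-values and counts are a description. The limma counts of each list stand beside 6.39% of all 21062 probe sets called lower and 6.79% called higher. Other genes of a published YAP signature lay on both sides of 0. Of 14, all measured, 4 were lower, 0 higher and 10 not called (limma; at an unadjusted p under 0.05, 1 was higher, and 1 with the LPE test). Their median difference was 0.017, with 7 values below and 7 above 0, from -0.63 to 0.21. That median was -0.02 with centred arrays, so its sign turned with the scaling. GADD45A, a growth arrest gene induced by DNA damage, fell by 0.63 on the log2 scale (adjusted p = 0.00132 from limma), from 9.65 to 9.74 on the arrays labelled HEK-CT to 8.98 to 9.12 on the others. The plasma membrane repair protein gene MYOF was at -0.49, the growth factor gene TGFB2 at -0.39 and the RNA-binding protein gene RBMS3 at -0.35 (adjusted p = 0.0305, 0.031 and 0.0297). Each of these 3 calls was lost on leaving out 5 of the 6 arrays in turn. MYOF held only without HEK-BAHD1 replicate 2, TGFB2 only without HEK-CT replicate 3, and RBMS3 only without HEK-BAHD1 replicate 1, with adjusted p-values up to 0.0934, 0.0905 and 0.0877. With all probe sets tested, named or not, TGFB2 was not called. LATS2, a target that is itself a Hippo kinase, was at -0.08.

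Genes reported as YAP targets in other cells were found in both directions. Of 10 listed, 8 were measured by a probe set naming them alone, with 3 higher, 2 lower and 3 not called. CCND1, a D-type cyclin, rose from 6.76, 6.51 and 6.35 on the arrays labelled HEK-CT to 8.48, 8.50 and 8.52 on those labelled HEK-BAHD1, a log2 difference of 1.96 (adjusted p = 0.000176 from limma). MYC, a growth-promoting transcription factor, had 8.16, 8.03 and 8.01 against 9.15, 9.15 and 9.13, a difference of 1.08 (adjusted p = 0.000252). Both calls held without any single array. THBS1, a matricellular protein like CCN1, was at -0.45 and the endothelin gene EDN1 at -0.41 (adjusted p = 0.0386 and 0.0225). THBS1 lost its call on removal of replicate 1 or 2 labelled HEK-CT, or of replicate 1 or 3 labelled HEK-BAHD1 (adjusted p up to 0.119), and with all probe sets tested. EDN1 lost its call on removal of any array labelled HEK-BAHD1 (up to 0.0694) and with the LPE test. JAG1, a Notch ligand, was at 0.21, a call lost on removal of any 1 of the 6 arrays, with centred arrays, with the LPE test and with all probe sets tested.

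None of the paralogs and partners of the members was called lower, beside 6.39% of all 21062 probe sets called lower and 6.79% called higher. With 14 genes, 0 called lower lies near that share. Of 14, 3 were higher, 0 lower and 11 not called (limma; at an unadjusted p under 0.05, 1 was lower, and 0 with the LPE test), and the median was 0.11. Among the CCN family, CCN3, CCN4, CCN5 and CCN6 had differences of 0.41, 0.11, 0.12 and 0.14, none of them called, while CCN1 and CCN2 were the family members with values below 0, under each scaling. CCN3 lay at the edge (adjusted p = 0.05004) and was called by the LPE test. ANKRD2 and ANKRD23, the muscle relatives of ANKRD1, were both at 0.0067, and at -0.03 with centred arrays. AMOT, the founding angiomotin, had 7.95, 7.82 and 7.78 on the arrays labelled HEK-CT and 8.58, 8.48 and 8.55 on those labelled HEK-BAHD1, so that it rose by 0.69 (adjusted p = 0.00132 from limma) beside -0.81 for AMOTL2 and 0.00 for AMOTL1. LIMD1 and WTIP, relatives of AJUBA, were at 0.013 (-0.023 with centred arrays) and 0.13, and NUAK1 at -0.093. For AXL, its ligand GAS6 was at 0.38 and its fellow receptors TYRO3 and MERTK at 0.28 and 0.00. GAS6 (adjusted p = 0.0219) lost its call on removal of replicate 1 or 2 labelled HEK-CT, or of replicate 2 or 3 labelled HEK-BAHD1. TYRO3 (adjusted p = 0.0316) was called only without HEK-BAHD1 replicate 2 among the removals, and neither with centred arrays nor with all probe sets tested (highest adjusted p 0.0723 and 0.0928 over the removals). TFPI, the inhibitor of the tissue factor pathway, was at -0.22 and not called.

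Of 27 genes of the Hippo cascade and its nuclear factors, AMOT and LATS2 among them, 4 were higher, 4 lower and 19 not called, with a median of -0.03. YAP1 was at -0.15 and WWTR1 at 0.047, neither called (adjusted p = 0.258 and 0.601). FAT4, an atypical cadherin upstream of the cascade, was at -0.87 (adjusted p = 0.00188), VGLL3, a TEAD cofactor, at 0.62 (0.00819) and WWC1, a scaffold of the LATS kinases, at 0.45 (0.00953), calls that held without any single array. TEAD1 was lower at -0.30 and TEAD2 higher at 0.28, both calls lost on leaving out 5 of the 6 arrays in turn (adjusted p up to 0.085 and 0.0681). TEAD1 held only without HEK-CT replicate 2 and TEAD2 only without HEK-BAHD1 replicate 1, neither was called by the LPE test, and TEAD1 was not called with all probe sets tested. TEAD3 and TEAD4 were at 0.023 and -0.03.

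**Figure D4:**
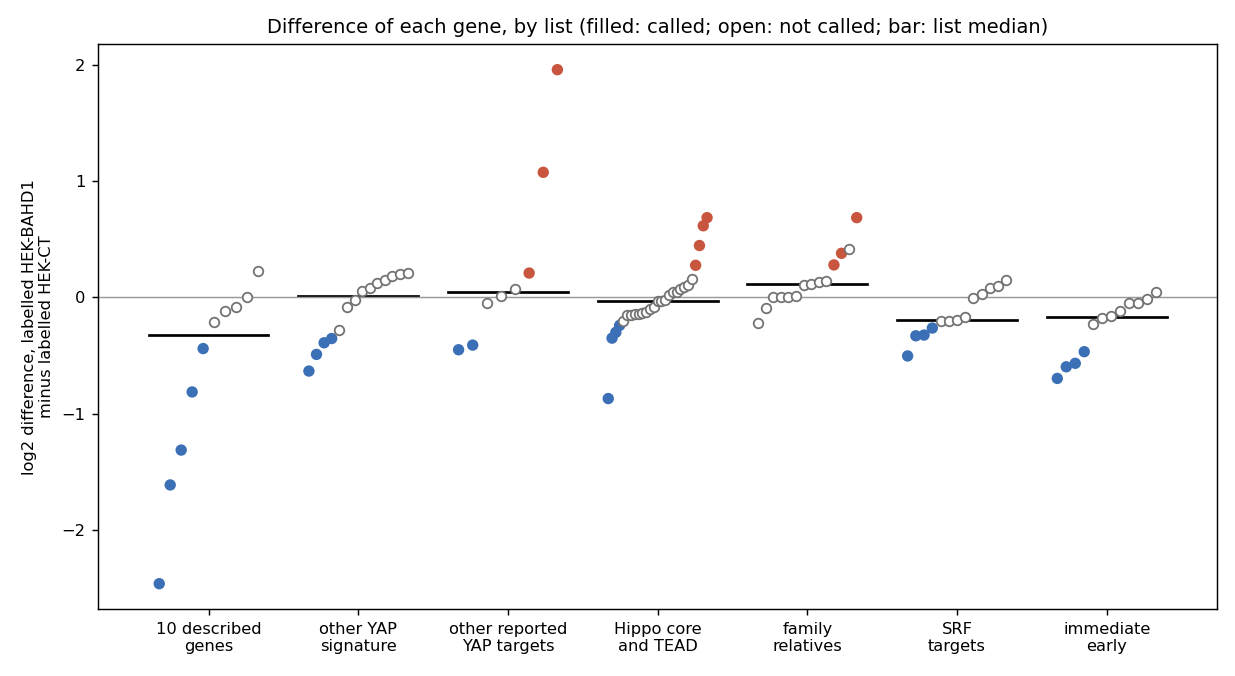
Log2 difference, labelled HEK-BAHD1 minus labelled HEK-CT (vertical axis), of each measured gene of 7 lists (horizontal axis). Filled points were called, red higher and blue lower, open points were not, and each bar is the median of its list. The 10 described genes lie between -2.46 and 0.23, and the other YAP signature genes between -0.63 and 0.21. ANKRD1, CCN2 and CCN1 were chosen by their differences on these arrays, so the wider range of the described genes is not a result.

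CCN1, CCN2 and ANKRD1 also respond to serum, through SRF and AP-1. Of 13 measured targets of SRF, 4 were lower, 0 higher and 9 not called. At an unadjusted p under 0.05 or with the LPE test 0 were higher too. Of all probe sets 6.39% were called lower and 6.79% higher. The median of the SRF targets was -0.20, beside 0.0033 for all probe sets. Their lower count ranged from 1 to 3 without single arrays. The smooth muscle actin gene ACTA2 was at -0.50 (adjusted p = 0.00362 from limma), a call that held without any single array. The calponin gene CNN2, the tropomyosin gene TPM1 and the vinculin gene VCL were at -0.33, -0.32 and -0.26 (adjusted p = 0.0195, 0.019 and 0.0165). CNN2 lost its call on removal of replicate 1 or 3 labelled HEK-CT, or of replicate 1 or 2 labelled HEK-BAHD1. TPM1 did so on removal of replicate 2 or 3 labelled HEK-CT, or of replicate 1 or 3 labelled HEK-BAHD1. VCL did so on removal of replicate 3 labelled HEK-CT or of replicate 1 labelled HEK-BAHD1 (highest adjusted p 0.0707, 0.0619 and 0.0672 for the 3 genes). SRF itself was at -0.0067. Of 12 measured immediate early genes, 4 were lower, 0 higher and 8 not called, again with 0 higher at an unadjusted p under 0.05 or with the LPE test, and the median was -0.17. FOS and FOSB, subunits of AP-1, were at -0.70 and -0.57, the stress factor ATF3 at -0.60 and the phosphatase gene DUSP1 at -0.47 (adjusted p = 0.0109, 0.00724, 0.00147 and 0.00649). These 4 calls held without any single array, whereas JUN was at -0.047 and EGR1 at -0.16, neither called.

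The probe sets with the closest values over the 6 arrays were sought by the root mean square distance between log2 profiles. All 10 described genes were left out of this search. Each profile had its own mean subtracted but was not scaled. The distance therefore holds the size of the difference between labels, on which ANKRD1, CCN1 and CCN2 were chosen. The neighbours are a description only. Nearest to CCN1 were SCG3 (0.106), a secretogranin, CPA4 (0.134), a carboxypeptidase, and ACTBL2 (0.158), an actin-like gene. Nearest to CCN2 were ACTBL2 (0.134), CPA4 (0.135) and RFPL4A (0.197). ANKRD1 had no neighbour as close, with the 2 probe sets of RFPL4A at 0.283 and 0.298 and BAHD1 at 0.356. RFPL4A has near-identical copies, so its signal may belong to any of them. CCN1 and CCN2 were 0.183 apart from each other. In the group labelled HEK-CT, replicate 1 was the lowest of the 3 arrays for 7 of the 10 genes, and for 32.6% of all probe sets. In the group labelled HEK-BAHD1, replicate 2 was the highest for 5 of the 10, and for 39.7% of all probe sets. The paper's supplement gives a later passage for HEK-BAHD1 replicate 2, but does not say which array that is. The part of this order of the arrays in the differences was not tested. Without HEK-CT replicate 1, the differences of ANKRD1, CCN2 and CCN1 were -2.55, -1.69 and -1.38. Without HEK-BAHD1 replicate 2, they were -2.50, -1.70 and -1.35.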

How the data were processed

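Total RNA of 2 HEK293 lines, 3 arrays each, was measured on Affymetrix HuGene ST arrays. The deposited values are log2 signals, obtained by the authors with RMA, which corrects background, normalizes between arrays and summarises probes. The sources used here give no version of it. RMA compresses low signals, so differences of dim genes may be understated, and array number limits precision. Symbols were updated through gene identifiers. Tests by limma 3.58.1 in R 4.3.3 covered 21062 probe sets with a gene name, with Benjamini-Hochberg adjustment and no block. Calls required an adjusted p under 0.05 together with group medians more than 0.2 apart. Where a listed gene had several probe sets, the brightest was used. The LPE test of the methods was written anew from its description (100 bins, spline of 10 degrees of freedom). Both tests were tested on simulated data. Members and lists were chosen with earlier results of these data known, so that members carry no p. The p-values and counts of the lists, markers included, are a description under the same limit. Named genes were the members, BAHD1, up to 4 called genes per list with the largest differences, and family relatives. The 3 nearest profiles of ANKRD1, CCN1 and CCN2, members left out, were named too. TEAD factors, YAP1, WWTR1, LATS2, TFPI, GAS6, SRF, JUN, EGR1, JAG1 and the markers were named beside them. The series number differs from that given in the paper for its arrays, and the lines and replicates match. Promoters came from RefSeq, GRCh38.p14. Since each line was 1 pool, p-values reflect only the spread between its cultures.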

Additional observations from a re-analysis of the deposited data

How the results depend on the processing

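Each of the 10 differences of the members moved by less than the gene's own pooled SD within groups with the arrays centred on their medians, after quantile normalization again, with the replicate block and without any single array. The counts of members called, 5 lower and 0 higher, moved by less than 1.5 times under all alternatives run (6 lower with centred arrays, 4 without HEK-CT replicate 1 or 3). The replicate numbers did not pair the arrays (correlations of deviations between equal numbers of -0.077, 0.074 and -0.038). With the replicate block the other YAP signature genes called lower numbered 2 rather than 4, those of the Hippo cascade 1 rather than 4, and all probe sets called lower 829 rather than 1345. SRF targets called lower numbered 3 rather than 4. Under that block TGFB2, RBMS3, JAG1, TEAD1, TEAD2, TYRO3, VCL and COL3A1 were not called (adjusted p = 0.0585, 0.0547, 0.0853, 0.0527, 0.0612, 0.0719, 0.0556 and 0.0968 from limma). With the LPE test 1 signature gene was higher, and 1 other reported target was lower rather than 2. After quantile normalization again 1 signature gene was higher. Without the dimmest 30% of probe sets 1 other reported target was lower, since EDN1 was among those removed, and with all probe sets tested, named or not, 1 other reported target and 1 Hippo gene were lower. The cause of the other moves was not tested. Without single arrays the lower counts ranged from 1 to 2 for signature genes, from 0 to 2 for other reported targets, from 1 to 2 for Hippo genes and from 1 to 3 for SRF targets, and the higher count of family relatives from 1 to 3. Over all probe sets these counts ranged from 581 to 937 lower and from 806 to 938 higher, the lowest both without HEK-CT replicate 3.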
